A study of Mus musculus with 6 samples.

Results

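The 10 genes described here were taken by symbol as a set of hypoxia, glycolysis and angiogenesis genes: Hif1a (ENSMUSG00000021109), Egln3 (ENSMUSG00000035105), Slc2a1 (ENSMUSG00000028645), Hk2 (ENSMUSG00000000628), Pgk1 (ENSMUSG00000062070), Ldha (ENSMUSG00000063229), Bnip3 (ENSMUSG00000078566), Ero1a (ENSMUSG00000021831), Vegfa (ENSMUSG00000023951) and Adm (ENSMUSG00000030790). All 10 were found among the 33696 features of the tables, and each had at least 1 count in every library used. They were read in live CD45+ cells (CD45 marks cells of blood origin) sorted from mouse mammary tumours and profiled by droplet single-cell RNA sequencing. The libraries carry the treatment labels MRX, CTX, Combined, ctxd18t and combod18t, with 1 library each. The labels do not spell these out and give no mouse strain, age, tumour line or number of animals. The series title names MERTK inhibition (MERTK is a receptor tyrosine kinase of macrophages), cyclophosphamide (an alkylating drug) and triple negative breast cancer. The protocol text, which is the same on every sample, says that the day 7 mice received treatment 3 hours before tumours were taken, and d18 in a label is read here as day 18. A sixth library, VC, was not analysed here, so there is no untreated reference, and nothing in the labels gives a cell's position in the tumour.

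Hypoxia-inducible factor is a pair of proteins, and its alpha subunit, made from Hif1a, is controlled mainly by how fast it is destroyed. When oxygen is plentiful, prolyl hydroxylases such as the product of Egln3 mark the subunit for degradation. When oxygen falls the subunit persists and switches on target genes, Egln3 itself among them. Known targets carry glucose into the cell (Slc2a1), start and complete glycolysis (Hk2, Pgk1, Ldha), remove mitochondria (Bnip3), support protein folding (Ero1a), or are secreted to act on vessels (Vegfa, Adm). In tumours, macrophages and neutrophils are known sources of Vegfa, and inflammatory signals can raise several of these genes without low oxygen. The level of Hif1a mRNA is therefore no direct measure of the protein.

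Cell barcodes that libraries share bear on the day 18 labels and come before the results. CTX and combod18t shared 34 barcodes, Combined and ctxd18t shared 21, and every other pair of libraries shared 0. The protocol gives each of the day 7 libraries a barcode set of its own within 1 run and gives none for the day 18 libraries, so the library labelled combod18t carries the barcode set of CTX, and the library labelled ctxd18t that of Combined. Whether the day 18 run assigned its sets in the same way is not given in the sources used here. If it did, the day 18 labels would be exchanged and every ratio of combod18t to ctxd18t would change sign. This was not tested, and the libraries are named by their labels throughout.

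The libraries held 4085 to 9064 cell barcodes and 39820290 to 100733879 UMIs (unique molecular identifiers, each standing for 1 captured transcript). After filtering, 3845 to 8506 cells were kept per library, with a median of 6239 to 8940 UMIs. Clusters were named from marker genes. The monocyte-macrophage-like class held 1376 cells in MRX, 4289 in CTX and 1175 in Combined, and at day 18 it held 754 in ctxd18t and 226 in combod18t, and the neutrophil-like class held 458, 90, 76, 336 and 292 in the same order. A level is the UMI count of a gene in all cells of a class of 1 library, scaled to 1000000 UMIs of those cells (CPM). The intervals are 95% and cover counting error only. With 1 library per label no difference has a replicate check and no p-value was computed, and a difference between labels cannot be told apart from one between animals. A log2 ratio is of CPM + 1, which understates changes of low genes. It was called past 2-fold where its size was at least 1, its interval excluded 0 and the libraries held at least 100 counts together.

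The promoters shown are those of the genes that differed most between libraries in monocyte-macrophage-like cells, apart from Adm with its few counts, and that of Vegfa. They are shown because the best known letters bound by hypoxia-inducible factor, ACGTG and GCGTG, can be looked for in them. RefSeq promoter entries of GRCm38.p6 were matched for 10 of the 10 genes, in 12 entries. This build differs from GRCm39, which the submitters' processing notes name, so only the sequences and not the counts rest on it. Each sequence gives the 250 bases before the annotated start, 5′ to 3′ on the strand of the gene, with matches on either strand in capitals (CACGT and CACGC are the same letters on the other strand, and CACGTG counts on both strands). The windows are Bnip3 at chr7:138909507-138909756 on the minus strand, Ero1a at chr14:45318573-45318822 on the minus strand, Egln3 at chr12:54203875-54204124 on the minus strand, Slc2a1 at chr4:119108495-119108744 on the plus strand, and Vegfa at chr17:46032378-46032627 on the minus strand.
Bnip3: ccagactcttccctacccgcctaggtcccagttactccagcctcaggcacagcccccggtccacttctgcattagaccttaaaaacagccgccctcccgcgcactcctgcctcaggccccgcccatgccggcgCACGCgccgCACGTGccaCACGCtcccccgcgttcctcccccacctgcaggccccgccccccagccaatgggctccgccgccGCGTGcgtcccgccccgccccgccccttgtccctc
Ero1a: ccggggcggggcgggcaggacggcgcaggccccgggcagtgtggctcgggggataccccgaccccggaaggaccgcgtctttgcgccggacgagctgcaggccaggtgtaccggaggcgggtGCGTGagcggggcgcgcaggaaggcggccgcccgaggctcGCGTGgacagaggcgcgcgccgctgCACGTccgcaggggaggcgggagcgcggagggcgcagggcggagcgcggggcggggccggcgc
Egln3: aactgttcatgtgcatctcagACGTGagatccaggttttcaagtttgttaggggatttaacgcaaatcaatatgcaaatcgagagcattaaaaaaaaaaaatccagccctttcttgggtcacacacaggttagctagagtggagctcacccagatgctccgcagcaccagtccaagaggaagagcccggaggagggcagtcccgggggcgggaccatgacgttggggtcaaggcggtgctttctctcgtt
Slc2a1: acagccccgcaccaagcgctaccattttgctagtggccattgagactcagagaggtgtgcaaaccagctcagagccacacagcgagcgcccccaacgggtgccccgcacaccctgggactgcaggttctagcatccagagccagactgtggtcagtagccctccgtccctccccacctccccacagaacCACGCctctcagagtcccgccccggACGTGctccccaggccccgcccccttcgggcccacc
Vegfa: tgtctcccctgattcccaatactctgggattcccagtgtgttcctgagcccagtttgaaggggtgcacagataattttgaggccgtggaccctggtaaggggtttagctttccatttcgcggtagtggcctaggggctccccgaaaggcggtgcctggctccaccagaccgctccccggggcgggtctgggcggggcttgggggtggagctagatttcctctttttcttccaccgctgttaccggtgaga

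Bnip3 had 5 matches in this window, the nearest 35 bases before the start, and Ero1a had 3, the nearest 63 bases before it. Slc2a1 had 2 and Egln3 had 1, which lay 229 bases before the start. The Vegfa window shown had 0. The other Vegfa entry had 2, but at chr17:46025164-46025413 on the minus strand it lies downstream of the start shown. The bases after its start were not found in a transcript of the gene, so its matches may not be in a promoter. Those after the starts of the Hif1a entry and of the first Ldha entry were not found either. These entries are counted below. Over all members, 11 of 12 entries (91.7%) held at least 1 match, against 12679 of 32851 promoter entries in the table (38.6%) and 5102 of 8886 entries of genes with at least 500 counts in monocyte-macrophage-like cells (57.4%). The members other than Hif1a, which encodes the alpha subunit, are known targets of the factor, so this share only describes the windows of the set. A match is a run of letters and not a shown binding site, and 0 matches says only that these letters are not in this window.

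Vegfa, the growth factor that drives vessel formation, was the member that set monocyte-macrophage-like cells apart. Its level in them was 389 CPM in MRX, 327 in CTX and 321 in Combined, and at day 18 it was 295 in ctxd18t and 248 in combod18t. Against all other kept cells of the same library this was higher in 5 of 5 libraries, by a log2 ratio of 1.65 in CTX to 2.65 in MRX. These other cells include clusters left out of the classes as mixed, with 507 cells in CTX and 36 in MRX. The best marker score of the mixed clusters was that of monocyte-macrophage cells. With them put in the monocyte-macrophage-like class, Vegfa was still past 2-fold in 5 of 5 libraries. Vegfa was the only 1 of 10 members past 2-fold in that class in all 5 libraries, against 4.48% of the 15032 genes examined. With median-of-ratios size factors Hk2 passed as well.

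Among the 7 classes with at least 50 cells in every library, which the orders below are limited to, neutrophil-like cells came next for Vegfa, with 188 CPM in MRX, 196 in CTX and 132 in Combined, and 129 in ctxd18t and 85.7 in combod18t at day 18, below the monocyte-macrophage-like level in 5 of 5 libraries. NK-like cells held 127, 107, 113, 96.8 and 139.7 CPM in the same order, so that neutrophil-like cells lay above them in 4 of 5 libraries and below them in combod18t. The conventional dendritic (cDC-like) class spanned 69.2 to 159.6 CPM. T-like cells stayed at 2.65 to 4.78 CPM in the 5 libraries. NK-like and T-like cells, both lymphocytes, were thus far apart for this gene. Within NK-like cells the larger cluster, led by Gzmc and Ncr1, held 101 to 155 CPM in every library.

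Monocyte-macrophage-like cells also came first when cells with a Vegfa UMI were counted. With each cell thinned to 1000 UMIs, which leaves out shallower cells, the share of monocyte-macrophage-like cells with a Vegfa UMI was 27.7% in MRX, 26.6% in CTX and 26.2% in Combined, and 25.0% in ctxd18t and 21.2% in combod18t at day 18, and the exact Clopper-Pearson interval of combod18t, 16.0 to 27.1%, overlapped those of the others. With all UMIs of each cell the shares were 74.6%, 80.4%, 79.5%, 76.7% and 72.1%. In T-like cells, set beside them as a class low in Vegfa, the thinned shares ran from 0.109% to 0.467%, at a median depth of 4711 to 7693 UMIs against 8121 to 13151 in monocyte-macrophage-like cells. The NK-like shares, 8.61% to 12.1%, lay above the T-like ones. The neutrophil-like shares, 7.39% to 12.6%, were above the NK-like ones in MRX and CTX and below them in Combined, ctxd18t and combod18t, so the order of these classes by cells was not that by CPM.

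The remaining members were ordered differently. Bnip3, Egln3 and Ero1a were at least 2-fold higher in neutrophil-like cells than in the other kept cells in 5 of 5 libraries, which is 3 of 10 members against 3.57% of all genes examined. Ero1a, which makes the oxidase that forms disulfide bonds in the endoplasmic reticulum, held 932 CPM in neutrophil-like cells of MRX, 277 in CTX and 226 in Combined, and at day 18 it held 795 in ctxd18t and 629.6 in combod18t. Among the 7 classes, the next by its median, T-like, spanned 64.1 to 96.7 CPM, so these ranges did not overlap. Bnip3, whose product sits on mitochondria and marks them for removal, spanned 122 to 496 CPM in neutrophil-like cells and 32.7 to 101 in monocyte-macrophage-like cells. Egln3 spanned 78.5 to 203 CPM in neutrophil-like cells and 11.4 to 20.9 in T-like cells.

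The glucose genes were compared between the same myeloid classes. Slc2a1, which encodes the glucose carrier of most cells, spanned 229 to 339.9 CPM in neutrophil-like and 80.3 to 199.8 in monocyte-macrophage-like cells, and the former lay above in 5 of 5 libraries. Hk2, the first enzyme of glycolysis, and Pgk1, a later one that makes ATP, were above the monocyte-macrophage-like level in neutrophil-like cells in 4 of 5 libraries. Ldha, which turns pyruvate into lactate, was above it in 3 of 5. For Hk2, Pgk1 and Ldha the ranges of the 2 classes over libraries overlapped, and within libraries the order held in fewer than 5 of 5.

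Hif1a had its highest median level, 728 CPM, in T-like cells, with a span of 565 to 793. Neutrophil-like cells followed with 559 to 766 CPM and lay below T-like cells in 3 of 5 libraries, so the order of these classes is not settled. Monocyte-macrophage-like cells spanned 458 to 581 CPM. Hif1a was thus high in classes whose target gene levels differed widely, such as T-like and neutrophil-like cells. Within T-like cells, the cluster led by Tnfsf8 and Cd40lg spanned 1134 to 1678 CPM over the 5 libraries and the cluster led by Foxp3 and Il2ra, genes of regulatory T cells, spanned 847 to 1231, against 172 to 221 in the cluster led by Dapl1 and Nsg2.

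B-like cells sat at the other end. For 6 of 10 members (Vegfa, Hif1a, Hk2, Bnip3, Egln3 and Ero1a) they were at least 2-fold lower than the other kept cells in 5 of 5 libraries, against 10.1% of all genes examined. With a pseudocount of 10 CPM the count was 4, without Egln3 and Ero1a. B-like Bnip3 spanned 6.02 to 8.82 CPM, and Egln3 spanned 0 to 1.85. Adm, which encodes a peptide that widens vessels, was near the limit of detection in every immune class. Its highest level was 13.7 CPM in neutrophil-like cells of MRX (19 counts), and it had 0 counts in neutrophil-like cells of CTX and Combined, where 3 counts would be 7.85 and 10.4 CPM.

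**Figure D1:**
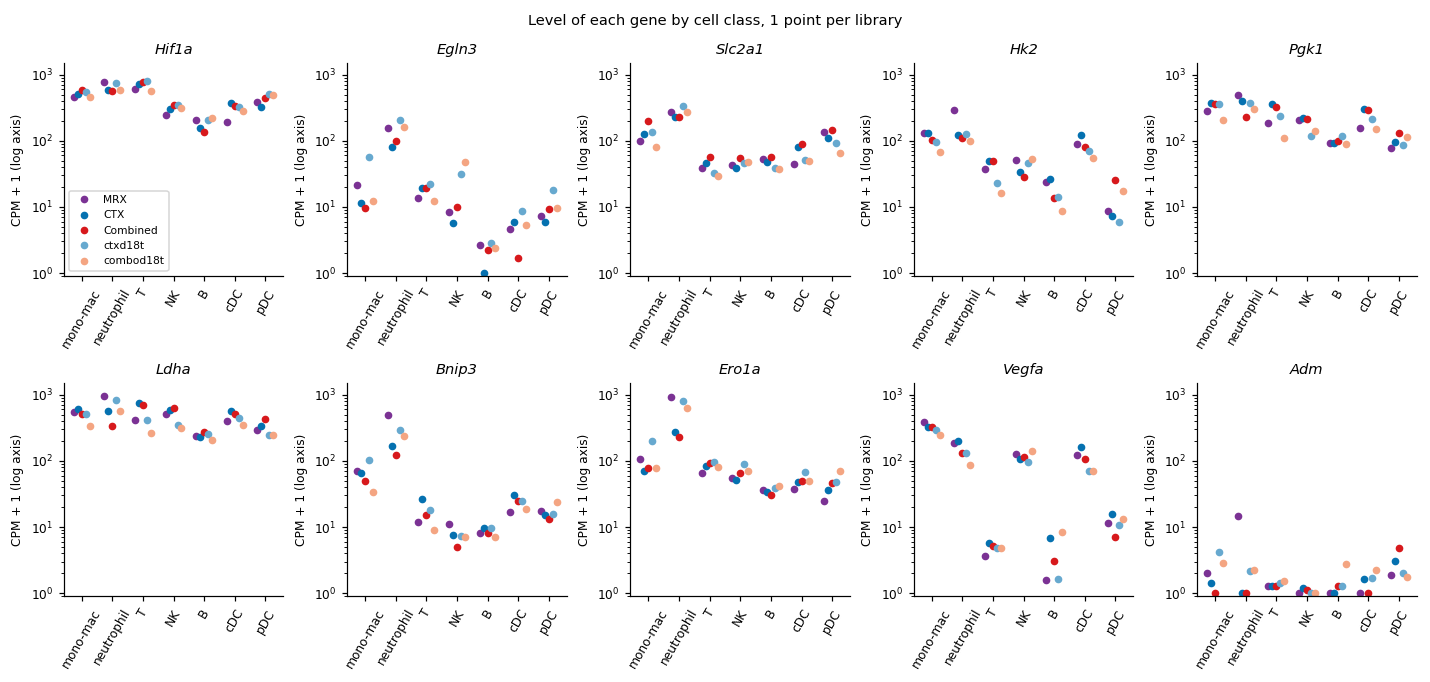
Level of each gene in 7 cell classes, as CPM + 1 on a log axis, with 1 point per library. Vegfa is highest in monocyte-macrophage-like cells (248 to 389 CPM), while Egln3, Bnip3 and Ero1a are highest in neutrophil-like cells.

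The libraries were then compared within monocyte-macrophage-like cells, the largest myeloid class, in which 4 clusters were joined. These were cluster 0 (led by Cxcl11, Ly6i and Cxcl9), cluster 2 (Pf4, Folr2 and C1qa), cluster 5 (Lyz2 and Ly6i) and cluster 9 (Ace, Vcan and F13a1). Cluster 0 held 47.6% of the class in CTX and 62.8% in Combined but 9.59% in MRX and, at day 18, 13.3% in ctxd18t and 8.41% in combod18t. In the day 18 libraries cluster 2 was the largest, with 46.4% in ctxd18t and 46.5% in combod18t, as it was in MRX (40.2%). The makeup of the class therefore differs between most pairs of libraries, and values within clusters stand beside the members past 2-fold.

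Hif1a in these cells held 458 CPM in MRX, 501 in CTX and 581 in Combined, and at day 18 it held 549.6 in ctxd18t and 459 in combod18t. The highest was 1.27 times the lowest. Egln3, which encodes the oxygen-dependent hydroxylase that acts on its protein, moved over a far wider range: 20.2 CPM in MRX (interval 17.8 to 23.0), 10.3 in CTX (9.46 to 11.3), 8.70 in Combined (7.24 to 10.4) and, at day 18, 55.4 in ctxd18t (51.2 to 59.9) against 11.4 in combod18t (8.0 to 15.8). The ctxd18t library stood above the other 4, whose highest was MRX.

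Slc2a1 held 98.7 CPM in MRX, 127 in CTX and 199.8 in Combined (193 to 207), and at day 18 it held 135 in ctxd18t and 80.3 in combod18t (70.7 to 90.8). Combined was high and combod18t low, with no overlap of their intervals with those of any other library. Hk2 held 129 CPM in MRX and in CTX and 102 in Combined, and 93.7 and 67.3 in ctxd18t and combod18t. Pgk1 held 279, 371, 360.0, 364 and 208 CPM in the order MRX, CTX, Combined, ctxd18t and combod18t. Ldha held 549, 606, 516, 519.7 and 339 CPM in that order. All 4 glucose genes were at their lowest in combod18t, which also had the fewest cells of the class.

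Bnip3 held 68.3 CPM in MRX (63.7 to 73.2), 65.0 in CTX (62.8 to 67.3), 49.3 in Combined (45.8 to 53.1) and, at day 18, 101 in ctxd18t (95.3 to 107) against 32.7 in combod18t (26.7 to 39.6). Ero1a held 105 CPM in MRX (99.7 to 111), 70.0 in CTX (67.7 to 72.3), 76.3 in Combined (71.8 to 80.9) and, at day 18, 200.4 in ctxd18t (192 to 209) against 77.4 in combod18t (68.0 to 87.8). Both genes were highest in ctxd18t, as Egln3 was. Vegfa ran instead from 389 CPM in MRX to 248 in combod18t, with ctxd18t (295) below the 3 day 7 libraries. Adm had 12 counts in MRX, 21 in CTX, 0 of 14367758 UMIs in Combined (3 counts would be 0.209 CPM), and at day 18 it had 36 in ctxd18t and 6 in combod18t, too few for a ratio by the rule in any pair.

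**Figure D2:**
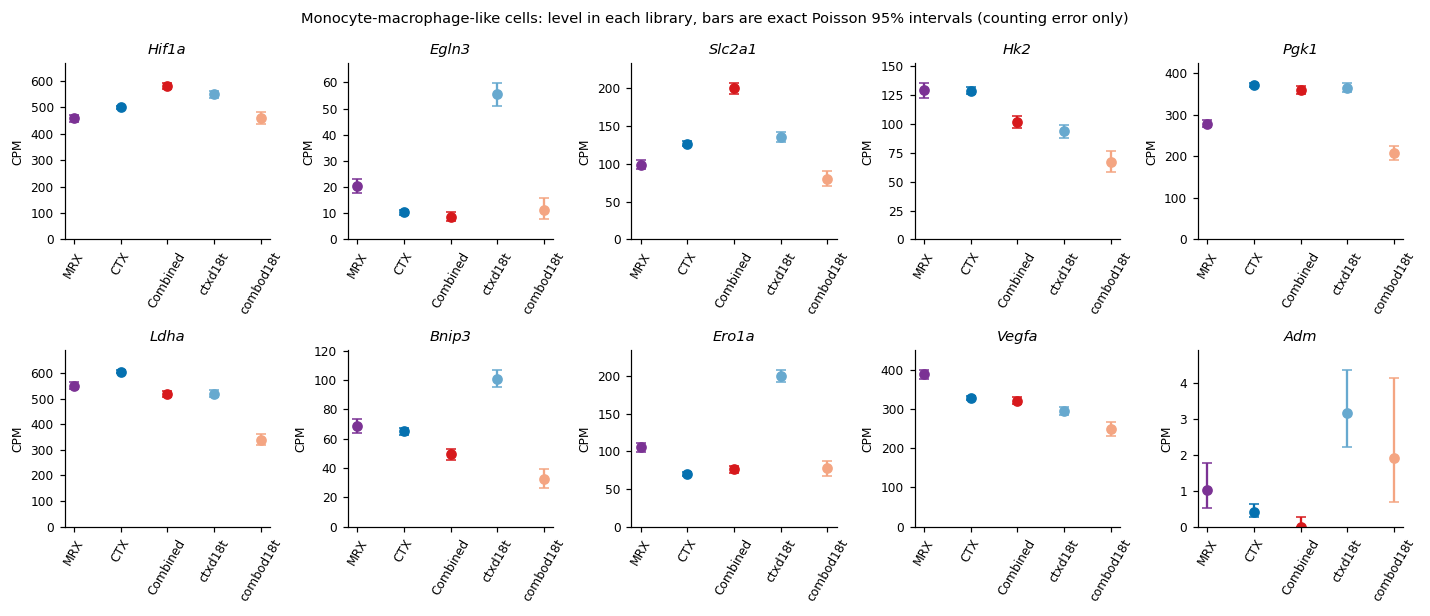
Level of each gene in monocyte-macrophage-like cells of each library, in CPM, with exact Poisson 95% intervals as bars. Egln3, Bnip3 and Ero1a peak in ctxd18t, Slc2a1 peaks in Combined (199.8 CPM), and Vegfa is highest in MRX (389 CPM).

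If CTX is read as cyclophosphamide and Combined as both agents of the title, which the labels do not spell out, Combined against CTX addresses the addition of MERTK inhibition. In monocyte-macrophage-like cells 0 of 9 members with enough counts were past 2-fold, against 0.591% of the 10655 genes examined. The largest difference was Slc2a1, at a log2 ratio of 0.65 (interval 0.59 to 0.72), outside the range of -0.43 to 0.40 that held the middle 90% of all genes examined. Its ratio was 0.64 in cluster 0, 0.38 in cluster 2, 0.25 in cluster 5 and 0.59 in cluster 9, so the direction was shared by the 4 clusters. Bnip3 had a ratio of -0.39 (-0.52 to -0.28), Hk2 -0.34 (-0.43 to -0.26), Ldha -0.23 and Egln3 -0.22. Vegfa was within counting error of equal at -0.03 (-0.08 to 0.02), and Pgk1 stood at -0.04. The median of the 9 members was -0.04, beside 0.05 for all genes examined.

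The matching pair at day 18, combod18t against ctxd18t, gave 3 of 9 members past 2-fold, all lower in combod18t, against 1.8% of the 8630 genes examined. Egln3 had a log2 ratio of -2.18 (-2.80 to -1.79), Bnip3 -1.60 (-1.93 to -1.34) and Ero1a -1.36 (-1.57 to -1.18). Pgk1 (-0.81), Slc2a1 (-0.74) and Ldha (-0.62) also had ratios below -0.52, the lower end of the middle 90% of all genes examined. Hk2 (-0.47), Hif1a (-0.26) and Vegfa (-0.25, interval -0.36 to -0.14) did not. All 9 ratios were below 0, with a median of -0.74 beside 0.04 for all genes examined. By the barcode sets, the direction of this comparison depends on the day 18 labels.

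Counted by cell, the same contrast was visible for Egln3. After thinning to 1000 UMIs, 6.38% of monocyte-macrophage-like cells of ctxd18t had an Egln3 UMI (4.72 to 8.39%), and 0.901% of those of combod18t did (0.109 to 3.22%, from 2 cells). The other 3 libraries had 1.68%, 1.00% and 0.598%, in the order MRX, CTX and Combined. In B-like cells, set beside them as a class low in Egln3, 0 cells of the day 7 libraries had such a UMI (which, at 3 cells of the total, allows up to 0.968% in MRX, 0.521% in CTX and 0.472% in Combined), and the share was 0.383% in ctxd18t and 0.392% in combod18t. After thinning, the exact intervals of the classes overlapped in MRX (1.07 to 2.51% against an exact upper limit of 1.18%), Combined and combod18t. With all UMIs those of combod18t did not: 7.08% of monocyte-macrophage-like cells of combod18t had an Egln3 UMI (4.10 to 11.2%) against 1.55% of B-like cells (0.424 to 3.92%), and the levels were 11.4 and 1.42 CPM, at median depths of 12895 and 8274 UMIs. For Ero1a the shares were 14.0% in ctxd18t (11.6 to 16.7%) and 4.50% in combod18t (2.18 to 8.13%), against 3.83% and 4.31% of B-like cells and 6.74% and 6.35% of T-like cells in the same order. The combod18t share was thus no higher than that of these classes beyond counting error, while that of ctxd18t was. At this depth 1 of 9 members remained past 2-fold by the rule, since Egln3 and Bnip3 then had under 100 counts.

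The 3 genes kept their direction within clusters. In cluster 2, the cluster with the C1q genes, Egln3 had a log2 ratio of combod18t to ctxd18t of -2.43 (-3.39 to -1.80), Bnip3 of -1.76 (-2.24 to -1.36) and Ero1a of -1.44 (-1.74 to -1.18). In cluster 9, the cluster with Vcan, the ratios were -2.58 (-3.73 to -1.83), -2.06 (-2.80 to -1.50) and -1.46 (-1.81 to -1.14) in the same order. Clusters 0 and 5 had 19 and 25 cells in combod18t and were not compared. Vegfa did not follow in cluster 2, where it held 238 CPM in combod18t and 254 in ctxd18t (log2 ratio -0.09, -0.26 to 0.08), and its ratio was -0.61 (-0.81 to -0.42) in cluster 9. Hif1a spanned 659.7 to 798 CPM over the libraries in cluster 9 and 211 to 384 in cluster 2, with no overlap between these clusters.

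**Figure D3:**
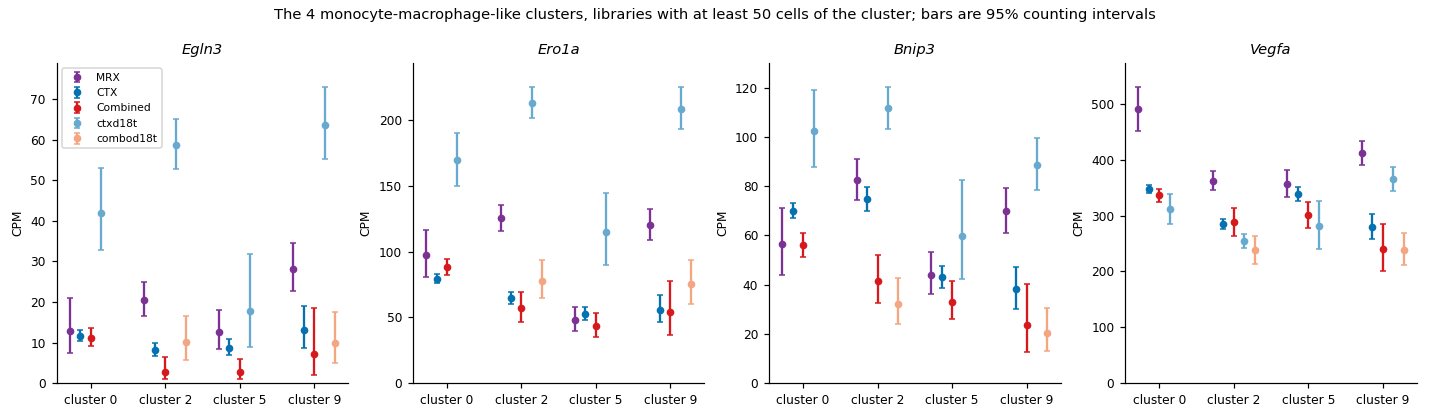
Egln3, Ero1a, Bnip3 and Vegfa in the 4 monocyte-macrophage-like clusters, in CPM with 95% counting intervals, for libraries with at least 50 cells of the cluster. In clusters 2 and 9 the ctxd18t points of Egln3, Ero1a and Bnip3 lie above those of every other library, while Vegfa is highest in MRX.

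Other features of these libraries moved with the day 18 pair. Summed neutrophil markers in monocyte-macrophage-like cells were 226 CPM in MRX, 191 in CTX and 127 in Combined, and 737 in ctxd18t and 1289 in combod18t, with all 7 markers detected in each. They were thus higher in combod18t, where the 3 genes that neutrophil-like cells hold most of were lower. Summed erythroid markers were 0.348 to 3.15 CPM in 4 libraries and 553 in combod18t, with 4 of 4 detected in both day 18 libraries. Of 8 genes induced by tissue dissociation, 2 were past 2-fold and lower in combod18t, the heat shock genes Hspa1a (39.3 against 137.7 CPM) and Hspa1b (29.5 against 157 CPM). The part of these in the ratios was not tested.

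Further genes of the pathway were read from lists for the day 18 pair. Of 20 further target genes of the factor, 15 had enough counts, and 4 were past 2-fold and lower in combod18t, among them Ankrd37 (-1.44), Ddit4, an inhibitor of growth signalling (-1.42), and Hilpda, a lipid droplet protein (-1.08). The median over the list was -0.86, beside 0.04 for all genes examined. Among the other glycolysis genes 1 of 17 was lower, Eno2 (-1.42), with a median of -0.38. Egln1, the main oxygen-sensing hydroxylase, was the 1 of 5 machinery genes past 2-fold (-1.18), and Pgf, a ligand related to Vegfa, was 1 of 6 in its list (-2.52). None of 11 mitochondrial respiration genes was past 2-fold, and 0 genes in these lists were higher. For Combined against CTX, the same lists held 0 genes past 2-fold.

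Against MRX, the library of the remaining day 7 label, CTX had 0 of 9 members past 2-fold (3.05% of all genes examined). Egln3 came nearest with -0.91 (-1.19 to -0.74), followed by Ero1a with -0.58 and Pgk1 with 0.41. Combined against MRX had 2 of 9 (5.37% of all genes examined), Slc2a1 at 1.01 (0.92 to 1.12) and Egln3 at -1.13 (-1.54 to -0.90). Both lie close to the threshold, and with a pseudocount of 10 CPM neither passed it (0.95 and -0.69). Slc2a1 had ratios of 1.16 in cluster 0, 0.36 in cluster 2, 0.81 in cluster 5 and 0.42 in cluster 9. Egln3 had -0.19 (-0.96 to 0.66) in cluster 0, which holds most of the class in Combined, and -2.50 (-4.53 to -1.60) in cluster 2, where Combined had 5 counts. These comparisons share the MRX library. Beside them 3 of the 8 dissociation genes were past 2-fold and lower in CTX and 3 in Combined, Hspa1a at 11.4 and 13.5 CPM against 62.2 in MRX, and the part of this was not tested. The placental growth factor receptor gene Flt1, which also binds Vegfa, was 63.0 CPM in CTX, 82.4 in Combined and 15.7 in MRX. Flt1 is a leading gene of cluster 0, whose share differs between these libraries.

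Day 18 libraries were also set beside the day 7 library of the matching label, where day and run cannot be told apart and an exchange of the day 18 labels would change the partners. For ctxd18t against CTX 2 of 9 members were past 2-fold, against 5.64% of all genes examined: Egln3 at 2.32 (2.25 to 2.59) and Ero1a at 1.50 (1.44 to 1.59), with Bnip3 at 0.63. Egln3 had ratios of 1.76 in cluster 0, 2.72 in cluster 2 and 2.19 in cluster 9, and of 0.94 in cluster 5 with an interval that includes 0 (-0.04 to 1.94). Ero1a had 1.09, 1.71, 1.10 and 1.88 in clusters 0, 2, 5 and 9. Vegfa (-0.15), Ldha (-0.22) and Hk2 (-0.46) lay on the other side of 0. Beside them Hspa1a was at 137.7 CPM in ctxd18t and 11.4 in CTX, and Hspa1b at 157 and 11.7, a difference whose part was not tested. The summed neutrophil markers in these cells were also higher, at 737 CPM in ctxd18t and 191 in CTX, and Egln3 and Ero1a are held most by neutrophil-like cells. The part of this was not tested either. For combod18t against Combined 1 of 9 was past 2-fold (11.6% of all genes examined), Slc2a1 at -1.30 (-1.51 to -1.13). Within clusters its ratio was -0.80 (-1.16 to -0.46) in cluster 2 and -0.76 (-1.20 to -0.34) in cluster 9, short of 2-fold, and clusters 0 and 5 were not compared. Egln3 (0.36, -0.18 to 0.94) and Ero1a (0.02, -0.18 to 0.22) did not differ beyond counting error, and 5 of 17 other glycolysis genes were lower, among them Gapdh (-1.24), Slc16a3 (-1.12) and Tpi1 (-1.11), with 1 higher, Pfkfb3 (1.13). Of 11 mitochondrial respiration genes 2 were lower there, Cycs and Cox5a, with a median of -0.89, and 3 of 5 proliferation genes, Mki67, Stmn1 and Birc5, were higher. Of the 8 dissociation genes 3 were higher in combod18t there.

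**Figure D4:**
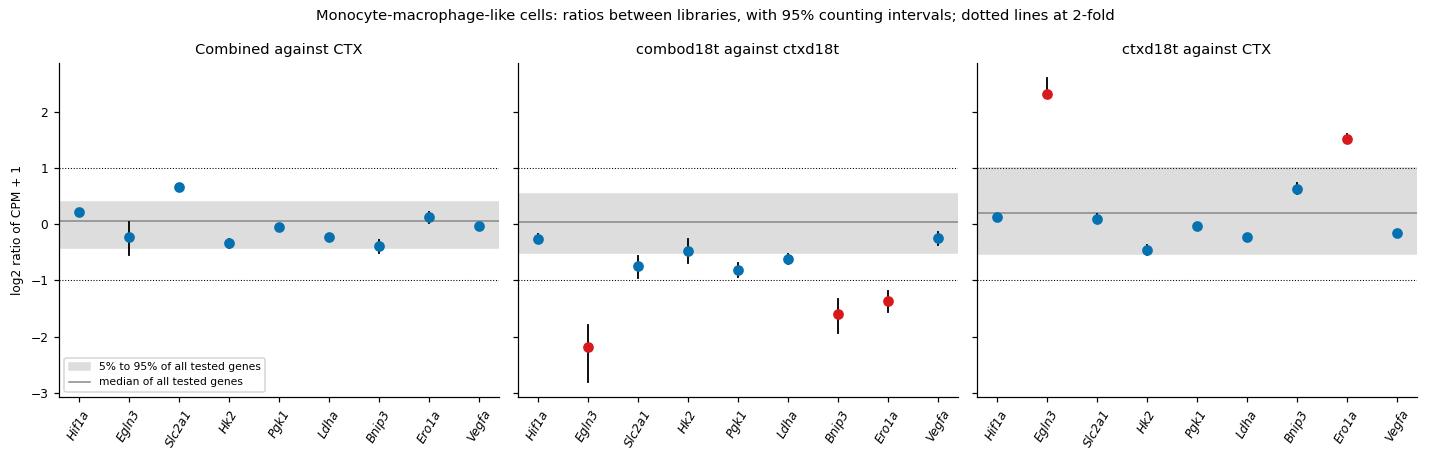
Log2 ratios of CPM + 1 in monocyte-macrophage-like cells for 3 comparisons, with 95% counting intervals, the median of all genes examined (line) and the range of their middle 90% (band). Red points passed the 2-fold rule: Egln3, Bnip3 and Ero1a for combod18t against ctxd18t, and Egln3 and Ero1a for ctxd18t against CTX.

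Neutrophil-like cells showed another split, between MRX and the other day 7 libraries. Ero1a fell from 932 CPM in MRX to 277 in CTX and 226 in Combined, log2 ratios of -1.75 (-2.05 to -1.46) and -2.04 (-2.43 to -1.69). Bnip3 fell from 496 CPM to 167 and 122, ratios of -1.56 and -2.02, and Hk2 fell from 296 CPM to 123 and 111, ratios of -1.26 and -1.41. Hk2 was as low at day 18, with 125 CPM in ctxd18t and 99.2 in combod18t. Ldha fell only in Combined by the rule, from 959 CPM in MRX to 337 (-1.51, -1.82 to -1.21), and held 570.5 in CTX (-0.75). Pgk1 likewise held 484 CPM in MRX, 398 in CTX and 226 in Combined (-1.10, -1.49 to -0.73). In all, 3 of 9 members were past 2-fold for CTX against MRX (19.6% of the 2702 genes examined) and 5 of 9 for Combined against MRX (13.1% of the 2609), all lower. The comparisons share MRX. The call of Hk2 in CTX was lost with CPM averaged over cells (-0.95) and with thinning (-0.88), and that of Pgk1 in Combined without doublet removal (-0.94) and at clustering resolution 2 (-0.95).

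The members that did not pass in these cells were Hif1a (766, 591 and 559 CPM in MRX, CTX and Combined), Slc2a1 (270.4, 230.3 and 229), Egln3 (155, 78.5 and 97.2) and Vegfa (188, 196 and 132). Of these, Slc2a1 had ratios against MRX in both libraries that did not differ from 0 beyond counting error, while Egln3 came nearest to the threshold in CTX, with a log2 ratio of -0.97 and a counting interval of -1.58 to -0.43. Of 12 further target genes with enough counts, 8 were lower in CTX and 8 in Combined, among them Hilpda at 1292 CPM in MRX, 487 in CTX and 292 in Combined. Of 12 other glycolysis genes 0 were past 2-fold in CTX (median -0.43) and 5 were lower in Combined (median -0.67), among them Pfkp and Tpi1. P4ha1, a collagen hydroxylase, held 523 CPM in MRX and 97.2 in Combined.

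The CTX and Combined values rest on 90 and 76 neutrophil-like cells. In them the summed monocyte-macrophage markers were 6278 and 3996 CPM, against 1245, 2419 and 2765 in the order MRX, ctxd18t and combod18t. The summed neutrophil markers were 48581 and 36318 CPM, against 64012, 59300 and 62093. The libraries with lower Bnip3 and Ero1a were thus those with fewer neutrophil and more monocyte-macrophage transcripts in the class, and the part of this in the result was not tested. At day 18, with 336 and 292 cells, 0 of 9 members were past 2-fold for combod18t against ctxd18t (1.96% of all genes examined). All 9 log2 ratios were below 0, from -0.58 (Vegfa) to -0.31 (Pgk1), with Egln3 at -0.33 and Ero1a at -0.34. Their median was -0.34, beside 0.03 for all genes examined, and all but Vegfa lay within the middle 90% of all genes (-0.53 to 0.64). The medians of the other glycolysis genes and of the further target genes were -0.13 and -0.17. Those of the mitochondrial respiration and dissociation lists were -0.20 and -0.23. In the proliferation list 2 of 2 genes, Top2a and Mki67, were past 2-fold and lower in combod18t, and the part of this was not tested. The ratios of Egln3 and Ero1a were -2.18 and -1.36 in the monocyte-macrophage-like class, and this difference between classes was not tested. Against the day 7 library of the matching label 2 of 9 members were past 2-fold in ctxd18t (21.5% of all genes examined), Egln3 at 1.36 (0.83 to 1.96) and Ero1a at 1.52 (1.23 to 1.82), both higher than in CTX. In combod18t 1 of 9 was, against Combined (19.4% of all genes examined), Ero1a at 1.48 (1.12 to 1.86). These shares are near or below the background. Beside the calls of ctxd18t against CTX, 4 of 8 dissociation genes, among them Hspa1b, Hspa1a and Atf3, and 2 of 2 proliferation genes were higher. There 7 of 8 mitochondrial respiration genes were lower (median -1.37). For combod18t against Combined 2 of 7 dissociation genes (Hspa1a and Atf3) were higher and 3 of 8 respiration genes were lower (median -0.91). The part of these was not tested. The call of Egln3 was lost with CPM averaged over cells (0.94) and with thinning (0.87). The day 7 values are again those of 90 and 76 cells.

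**Figure D5:**
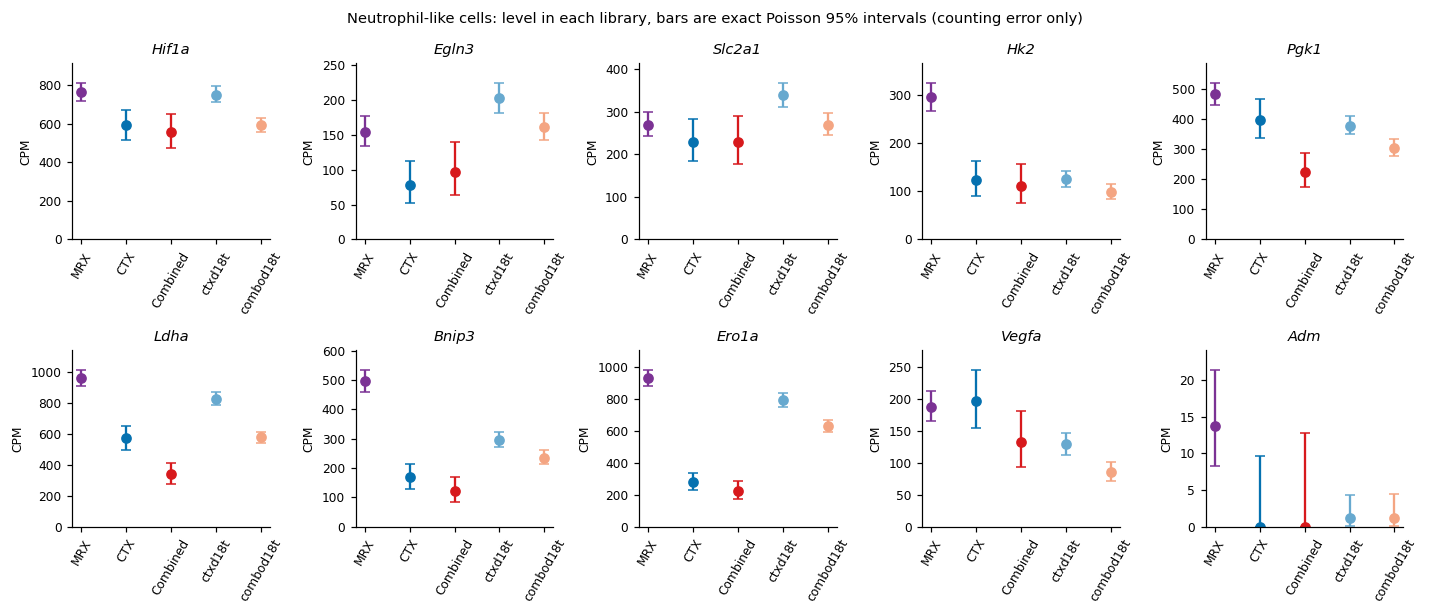
Level of each gene in neutrophil-like cells of each library, in CPM, with exact Poisson 95% intervals. Hk2, Bnip3 and Ero1a stand highest in MRX. Bnip3 and Ero1a are lowest in CTX and Combined, where 90 and 76 cells give wide intervals, and Hk2 is as low in the day 18 libraries (125 and 99.2 CPM).

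In T-like cells, which held little Vegfa, the libraries were compared for the glycolysis members. Pgk1 held 183 CPM in MRX, 365 in CTX and 326 in Combined, and at day 18 it held 233 in ctxd18t and 111 in combod18t, and Ldha held 421, 742, 712, 420.2 and 259.9 in that order. Both were highest in CTX and Combined and lowest in combod18t. Within clusters the ratios of CTX to MRX ran from 0.02 to 0.85 for Pgk1 and from -0.16 to 0.67 for Ldha over 6 clusters. Cluster 14, led by the cell cycle genes Rrm2 and Nusap1, held 348 of the 1706 T-like cells of CTX and 115 of 1844 in MRX, and 3 of 6 proliferation genes were past 2-fold and higher in CTX. The part of this was not tested. Combined against CTX had 0 of 8 members past 2-fold (0.652% of all genes examined), and CTX against MRX had 1 of 8 (2.94%), Bnip3 at 1.16 (0.92 to 1.55), with Pgk1 at 0.99 (0.92 to 1.07). The call of Bnip3 was lost with a pseudocount of 10 CPM (0.77) and with thinning (0.84). Of the other glycolysis genes 0 of 15 were past 2-fold for Combined against CTX and 2 of 15 for CTX against MRX, Slc16a3 and Tpi1, both higher.

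For combod18t against ctxd18t 2 of 9 members were past 2-fold and lower in T-like cells (4.7% of all genes examined), Pgk1 at -1.06 (-1.15 to -0.99) and Bnip3 at -1.01 (-1.40 to -0.80). The call of Bnip3 was lost with median-of-ratios size factors (-0.99), with a pseudocount of 10 CPM (-0.59) and with thinning (-0.34, -1.61 to 0.92). Of 16 other glycolysis genes 1 was past 2-fold and lower, Tpi1. For ctxd18t against CTX it was 1 of 9 (5.53%), Hk2 at -1.12 (-1.37 to -0.94), a call lost with a pseudocount of 10 CPM (-0.88), with CPM averaged over cells (-0.90) and with thinning (-0.82). For combod18t against Combined it was 3 of 9 (16.4%), Hk2 at -1.61, Pgk1 at -1.55 and Ldha at -1.45, of which Hk2 was not called with thinning (-1.78, -2.67 to -1.11), and 6 of the 16 other glycolysis genes were lower, as were 7 of 11 mitochondrial respiration genes (median -1.11, against -0.43 for the glycolysis list). Cluster 3, led by Igfbp4 and Lef1, held 1300 of the 2590 T-like cells of combod18t, against 189 of 1252 in ctxd18t and 119 of 974 in Combined. Within the clusters with at least 100 counts, Pgk1 ratios of combod18t to ctxd18t ran from -1.05 to -0.32 over 7 clusters, and Ldha ratios of combod18t to Combined ran from -1.53 to -0.37 over 6. Cell cycle genes moved with them: 6 of 6 in the proliferation list were past 2-fold and lower in T-like cells of combod18t against Combined, and 4 of 6 against ctxd18t. So did the dissociation genes, of which 3 of 8 were lower in combod18t than in ctxd18t and 2 of 8 (Jun and Hspa1b) were lower than in Combined. For ctxd18t against CTX 2 of 8 dissociation genes (Hspa1a and Hspa1b) were higher and 3 of 6 proliferation genes were lower. The part of these lists was not tested.

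Egln3 in NK-like cells held 7.44 CPM in MRX, 4.66 in CTX and 8.99 in Combined, and at day 18 it held 30.2 in ctxd18t and 46.6 in combod18t. Both day 18 libraries were above the 3 day 7 ones, unlike in monocyte-macrophage-like cells, where combod18t was low. For combod18t against Combined, which had 107 and 939 NK-like cells, 2 of 8 members were past 2-fold (13.5% of all genes examined), Egln3 at 2.25 (1.84 to 2.90) and Ldha at -1.01 (-1.17 to -0.85). With thinning neither was called, Egln3 at 0.75 (-2.43 to 3.03) and Ldha at -0.75, and Ldha was also lost with a pseudocount of 10 CPM (-0.99) and with CPM averaged over cells (-0.94). Beside them 2 of 7 dissociation genes (Jun and Hspa1b) and 2 of 5 proliferation genes (Cdk1 and Stmn1) were lower in combod18t, and the part of this was not tested.

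The dendritic classes held the remaining ratios past 2-fold. In pDC-like cells (plasmacytoid dendritic) combod18t against Combined had 1 of 5 members (8.93% of all genes examined), Slc2a1 at -1.13 (-1.52 to -0.79). In cDC-like cells Combined against MRX had 1 of 7 (5.75%), Slc2a1 at 1.01 (0.61 to 1.44), and ctxd18t against CTX had 1 of 8 (11.4%), Vegfa at -1.19 (-1.43 to -0.98). Beside the pDC-like ratio 2 of 6 dissociation genes (Hspa1b and Jun) were lower in combod18t. In cDC-like cells 3 of 8 were lower in Combined than in MRX. There 2 of 8 dissociation genes and 3 of 5 proliferation genes were higher in ctxd18t than in CTX. The part of these was not tested. With thinning none of the 3 member ratios was called, and Slc2a1 in cDC-like cells turned to -0.23 (-2.39 to 1.60). The pDC-like call was also lost without doublet removal and with CPM averaged over cells. That of Slc2a1 in cDC-like cells was also lost with median-of-ratios size factors, with a pseudocount of 10 CPM and with CPM averaged over cells.

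A few epithelial-like cells were present although the sort was for CD45+ cells, 129 in ctxd18t, 58 in CTX and 39 or fewer in each other library. Egln3 held 262 CPM in those of ctxd18t (241 to 284), 49.4 in CTX (37.9 to 63.2) and 90.5 in combod18t (73.0 to 111). Vegfa held 320.2, 106 and 195 CPM in the same order, Ero1a held 478, 109.7 and 329, and Adm held 27.5, 2.35 and 5.90. In these cells too ctxd18t was the highest of the 3, and combod18t lay between it and CTX. The number of cells limits what this shows, and these are class sums of single libraries.

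Likeness was described by Pearson's r of log levels over 40 sums of a class in a library, among 7377 genes, and over 18 sums of a monocyte-macrophage-like cluster in a library, among 4799 genes. These sums share libraries and cells, so r is a description with no p. Egln3 and Ero1a were each other's nearest gene in both sets, with r of 0.86 over classes and 0.90 over monocyte-macrophage-like clusters. Pgk1 was nearest to other glycolysis genes over classes, Tpi1 (0.94), Eno1 (0.92) and Pgam1 (0.92), and Ldha was nearest to Pgk1 (0.89). The genes nearest over classes to Bnip3 (Alas1, Sgms2 and Ier3), Slc2a1 (Mapkapk2, Lipg and Selenok) and Hif1a (Lcp2, Slfn1 and Pstpip1) were in none of the pathway lists. Within the monocyte-macrophage-like clusters the genes nearest to Bnip3 were Arg1 (0.90), Ddit4 (0.81) and Egln1 (0.81). Ldha was nearest there to Tpi1 (0.95), Fam162a (0.95) and Mif (0.90). No member was among the 3 nearest genes of Vegfa: over classes its nearest genes were Lrmda (0.91), Trf (0.90) and Pxn (0.86), and its r with the other members ran from 0.10 (Hif1a) to 0.70 (Hk2), with 0.63 for Pgk1.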

How the data were processed

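Live CD45+ cells of mouse mammary tumours went through a 10x 3' kit with on-chip multiplexing, and per the labels' protocols the authors ran Cell Ranger 9.0.1. GRCm39 and Seurat 5.2.0 are named in the submitters' processing notes, with no role given. The deposited matrices hold raw UMI counts per gene and cell, not normalised, made by the authors.

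From these, cells with at least 200 genes and at most 15% mitochondrial counts were kept. Scrublet (scanpy 1.11.5, expected rate 0.06) marked 0 to 6 cells per library by its own threshold, so about the highest 5% by score were removed (160 to 392 per library). Each cell was scaled to 10000 counts on a log scale, and 2000 variable genes without the members gave 30 principal components, 15 neighbours and Leiden clusters (leidenalg 0.10.2, resolution 1), on all libraries at once and not integrated. Marker lists gave the cluster names. Clusters 13 and 17, whose next class of another family scored at least 0.4 times the best at over 1.5 times the depth of their libraries, were left out as mixed (36 to 507 cells per library), by a rule set after seeing the data.

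Levels are CPM of summed raw counts, with exact Poisson intervals (scipy 1.17.1) and exact conditional binomial intervals of ratios without the pseudocount of 1 CPM, all at 95%. Log2 ratios of all genes with at least 100 counts give the background. The steps were tested on simulated data drawn from the real totals. The members and lists were chosen with earlier results of these data known, all 10 members are described, and from the other lists genes past 2-fold are named, apart from some results that are not reported here. Of 25 glycolysis and 12 respiration genes listed, 24 and 11 were matched: the symbol Aldoa stands on more than 1 row. Alternatives were other size factors, pseudocount, filters, doublet handling, clustering resolution, averaging and thinning. With 1 library per label, none could be left out as a replicate.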

Additional observations from a re-analysis of the deposited data

Results flagged for a closer look

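Some members differed in opposite directions in the pair Combined against CTX and in the pair combod18t against ctxd18t, each with a counting interval that excluded 0. The difference between the pairs was not tested, since each label has 1 library, and the opposite direction rests on the day 18 labels. If those were exchanged, each day 18 ratio would turn, and all 6 items would have the same sign in both pairs: the day 18 ratio of Ero1a would be 1.36 and that of Slc2a1 0.74 in monocyte-macrophage-like cells. In monocyte-macrophage-like cells Ero1a had log2 ratios of 0.12 and -1.36, a difference of -1.48. Slc2a1 there had 0.65 and -0.74, a difference of -1.40. Hif1a there had 0.21 and -0.26, a difference of -0.47, and in T-like cells 0.11 and -0.49, a difference of -0.60. Within T-like clusters with at least 100 counts the Hif1a ratios ran from -0.17 to 0.04 over 6 clusters for Combined against CTX and from -0.45 to 0.03 over 7 for combod18t against ctxd18t, so that neither class value lay within the range of its clusters. Slc2a1 in pDC-like cells (plasmacytoid dendritic) had 0.41 and -0.48, a difference of -0.88. Ldha in B-like cells had 0.27 and -0.34, a difference of -0.60.

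Bnip3 moved in opposite directions in a pair of cell classes for CTX against MRX. It was past 2-fold and higher in T-like cells (1.16) and past 2-fold and lower in neutrophil-like cells (-1.56), a difference of 2.72 that was not tested. The T-like call was lost with a pseudocount of 10 CPM (0.77) and with thinning (0.84).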

How the results depend on the processing

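No paired analysis was possible because each label has 1 library. Of 31 called member ratios, 31 stayed past 2-fold without the filter on low counts, 30 with the mixed clusters kept, 29 with at least 500 genes per cell, 28 with median-of-ratios size factors and at clustering resolution 2, 27 without doublet removal, 24 with CPM averaged over cells and with a pseudocount of 10 CPM, and 17 with cells thinned to 1000 UMIs, where fewer counts remain. At 500 genes, at resolution 2 and without doublet removal no cluster was named cDC-like, so its 2 ratios had no value there. The 1 sign change was Slc2a1 in cDC-like cells for Combined against MRX, at -0.23 with thinning. In monocyte-macrophage-like cells Combined against MRX (2 members) gave 1 with median-of-ratios size factors, with mixed clusters kept, with thinning and with CPM averaged over cells, and 0 with a pseudocount of 10 CPM. There combod18t against Combined (1 member) gave 2 with median-of-ratios size factors, without the count filter and with thinning, and combod18t against ctxd18t (3 members) gave 1 with thinning. In T-like cells combod18t against ctxd18t (2 members) gave 1 with median-of-ratios size factors, with a pseudocount of 10 CPM and with thinning. CTX against MRX in T-like cells (1 member) gave 2 with median-of-ratios size factors, and 0 with a pseudocount of 10 CPM and with thinning. In NK-like cells combod18t against Combined (2 members) gave 1 with a pseudocount of 10 CPM and with CPM averaged over cells, and 0 with thinning. With median-of-ratios size factors Hk2 joined Vegfa as higher in monocyte-macrophage-like cells in 5 of 5 libraries, 2 members in place of 1. In neutrophil-like cells Slc2a1 joined the 3 members with median-of-ratios size factors, with CPM averaged over cells and with thinning. In B-like cells 6 lower members became 4 with a pseudocount of 10 CPM, without Egln3 and Ero1a, Bnip3 was lost with thinning, and Ero1a was lost without doublet removal, with Pgk1 joining in both of these. In neutrophil-like cells the call of Hk2 for CTX against MRX was lost with thinning and with CPM averaged over cells, and that of Pgk1 for Combined against MRX without doublet removal and at clustering resolution 2. In T-like cells that of Hk2 for combod18t against Combined was lost with thinning. Another 6 comparisons were recomputed after seeing the data. In neutrophil-like cells ctxd18t against CTX (2 members) gave 1 with CPM averaged over cells and with thinning, and combod18t against Combined (1) gave 2 with median-of-ratios size factors, at resolution 2 and with thinning, and 4 with CPM averaged over cells. In T-like cells ctxd18t against CTX (1) gave 2 with median-of-ratios size factors, and 0 with a pseudocount of 10 CPM, with CPM averaged over cells and with thinning. In pDC-like cells combod18t against Combined (1) gave 0 without doublet removal, with CPM averaged over cells and with thinning. In cDC-like cells Combined against MRX (1) gave 0 with median-of-ratios size factors, with a pseudocount of 10 CPM, with CPM averaged over cells and with thinning, and ctxd18t against CTX (1) gave 2 with median-of-ratios size factors and 0 with thinning. The causes of these moves were not tested beyond the fewer counts. The shares of monocyte-macrophage-like cells with a Vegfa UMI were 74.6%, 80.4%, 79.5%, 76.7% and 72.1% without thinning, in the order MRX, CTX, Combined, ctxd18t and combod18t. The neutrophil-like levels of CTX and Combined rest on 382145 and 288038 UMIs, which limits their precision.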
